A study of Homo sapiens and Mus musculus with 30 samples.

Results

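The genes described here are 10 well-known transcriptional targets of the tumour suppressor p53, taken by their symbols: CDKN1A, MDM2, TP53I3, BTG2, ZMAT3, SESN1, BBC3, GADD45A, CCNG1 and BAX. All 10 were found by symbol among the 11342 genes of the table for HEK293A, a human embryonic kidney line, and among the 57820 genes of the table for cells transfected with let-7a. Of the 41128 genes of the table for NIH3T3, a mouse fibroblast line, 9 were matched by the same symbols in title case, and Tp53i3 was not matched.

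The series varied LIN28B, an RNA-binding protein known for holding back the maturation of let-7 microRNAs, and sequenced polyA-selected total RNA and polysome RNA, the RNA bound by several ribosomes. X0 denotes the LIN28B knockout, and X1 to X4 are described as cells with stepwise more LIN28B from doxycycline-induced transgenes, all in DMEM with 10% FBS. The protocol gives doxycycline at 10 ng/ml for every library, X0 included. In HEK293A at X0, 1 further pair of libraries came from cells given mature let-7a at 10 nM with Lipofectamine RNAiMAX, and 8 small RNA libraries were made with and without LIN28B and let-7a. The labels name no promoter or number of cultures. Descriptions of the HEK293A X0 libraries carry a name other than X0, and whether it names a clone is not given. The design text speaks of 2 replicates, yet the tables hold 1 library per level and fraction, so a trend was judged against the scatter around a line through 5 levels and nothing shows that the libraries are separate cultures. HEK293 lines carry adenoviral E1 genes, whose products bind p53, and NIH3T3 is an immortalised line, which limits both as models of a normal p53 response.

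The transcription factor p53 is held at low levels by the ubiquitin ligase MDM2, itself one of its targets, and accumulates when cells are stressed. It then induces genes that halt the cell cycle (CDKN1A, GADD45A, BTG2), genes that promote apoptosis (BAX, BBC3), redox and nutrient-sensing genes (TP53I3, SESN1), and genes that act back on p53 or on RNA (MDM2, CCNG1, ZMAT3). Because the RNA of a gene and its loading on ribosomes can move apart, both were followed.

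RefSeq promoter windows, from 250 bases before to 50 bases after a transcription start (GRCh38.p14), were found for 9 of the 10 genes, in 16 windows. They were searched for the p53 half-site, a motif of 10 bases known by that name, with its CNNG core kept. The half-site reads alike on both strands. An adjoining pair of half-sites with at most 3 mismatches in all was present in windows of 2 genes, MDM2 and SESN1, and in 1.12% of all 35116 windows. ZMAT3 held a looser pair, with 6 bases between them, of a kind that 12.8% of windows held. The MDM2 and SESN1 windows are shown because they carry the pair, in capitals below, which in MDM2 begins 94 bases before the start and in SESN1 49 bases before it. The MDM2 window, chr12:68808767-68809066 on the plus strand, belongs to the second MDM2 promoter, known for its p53 response, and the SESN1 window is chr6:109008939-109009238 on the minus strand.
MDM2: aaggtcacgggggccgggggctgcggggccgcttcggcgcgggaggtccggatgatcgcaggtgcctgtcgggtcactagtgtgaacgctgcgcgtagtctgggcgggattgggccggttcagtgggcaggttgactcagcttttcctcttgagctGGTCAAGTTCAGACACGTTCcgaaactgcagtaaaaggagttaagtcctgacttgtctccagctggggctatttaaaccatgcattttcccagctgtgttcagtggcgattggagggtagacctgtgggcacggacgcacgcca
SESN1: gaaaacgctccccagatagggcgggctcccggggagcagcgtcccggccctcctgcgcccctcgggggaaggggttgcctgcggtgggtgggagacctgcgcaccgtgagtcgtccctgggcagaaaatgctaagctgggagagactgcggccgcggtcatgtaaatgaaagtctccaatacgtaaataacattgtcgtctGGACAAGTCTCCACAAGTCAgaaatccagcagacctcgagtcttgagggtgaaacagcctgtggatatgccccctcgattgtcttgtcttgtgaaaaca
The MDM2 pair had 2 mismatches and the SESN1 pair 3, and the first SESN1 half-site was the only one in a member window that matched with none. An exact half-site occurred in 6.63% of all windows. A match describes letters and is not a measured binding site, and the absence of one in the other windows says only that these letters do not lie there.

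LIN28B total RNA in HEK293A was 3.60, 23.0, 33.4, 81.2 and 208 RPKM (reads scaled to gene length and library size) from X0 to X4, in the order the labels give. In NIH3T3 mouse Lin28b had 1 read at X0, X1 and X2, 9 at X3 and 42 at X4, and whether these are reads of a transgene is not given. The order of X0, X1 and X2 in NIH3T3 thus rests on the labels. Reads recovered from the RPKM steps, over the genes of each table, came to 37654587 to 56002258 per HEK293A total RNA library and 9085007 to 14592558 per polysome library. In NIH3T3 they came to 15201625 to 23606610 and 15577792 to 20407232. The HEK293A table held 4 of 6 markers of HEK293 cells, summing to 111 to 135 RPKM per library, and 0 of 7 fibroblast markers, but that table starts at 1 RPKM of total RNA. In NIH3T3 6 of 7 fibroblast markers averaged 1 RPKM or more (524 to 977 RPKM summed), while markers of HEK293 cells reached at most 0.738 RPKM. Cdkn2a, the locus encoding the p53 activator Arf and the inhibitor p16, had at most 1 read in any NIH3T3 library. RefSeq places another gene over part of 6 of the 10 genes, CPM over MDM2 among them, and since the strand setting of the counting is not given, reads of such partners cannot be told apart. In bulk RNA, fewer cells expressing a gene and less RNA per cell cannot be told apart.

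In HEK293A, total RNA of 4 of the 10 p53 target genes rose with LIN28B and that of none fell, where 1.48% of all genes tested were called higher and 0.758% lower. The risers were the cell cycle inhibitors CDKN1A and BTG2, the oxidoreductase gene TP53I3 and the RNA-binding zinc finger gene ZMAT3. The slopes of 8 of 10 genes were above 0, with a median of 0.11 log2 units per level against 0.00 over all 11342 genes. In 7 of 10 genes every level with LIN28B lay above X0 (25.8% of all genes), and in BBC3 every level lay below it (22.8%). The RNA trends of the lines were known when the genes were chosen, so these counts give them no independent support.

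CDKN1A encodes p21, which inhibits cyclin-dependent kinases. From X0 to X4 its total RNA was 6.88, 13.2, 13.3, 16.7 and 25.6 RPKM. X0 was the lowest library and X4 the highest, a 3.73-fold difference, and the slope was 0.40 ± 0.05 (SE) log2 units per level (adjusted p = 0.00793, limma with Benjamini-Hochberg adjustment over all genes, used for every trend here). BTG2, an antiproliferative gene, stood at 14.5, 17.2, 16.8, 18.7 and 25.7 RPKM from X0 to X4. The first step and the last were the largest, and the slope was 0.17 ± 0.03 (adjusted p = 0.0334). GADD45A, a stress-induced gene of growth arrest and DNA repair, ran 7.73, 8.98, 8.45, 8.81 and 11.3 RPKM. X4 stood above the rest, yet its slope of 0.10 ± 0.03 did not pass (adjusted p = 0.13).

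TP53I3 was the least abundant of the 10 genes, at 1.07, 2.16, 2.48, 2.61 and 4.20 RPKM from X0 to X4, on 100 to 420 reads. It was lowest at X0 and highest at X4, 3.92-fold apart, with a slope of 0.34 ± 0.05 (adjusted p = 0.0148). ZMAT3 had 6.88, 8.44, 8.65, 8.82 and 11.4 RPKM, again lowest at X0 and highest at X4, with a slope of 0.14 ± 0.03 (adjusted p = 0.0406). SESN1, a sestrin that restrains mTORC1 signalling, had 10.1 RPKM at X0, at most 12.3 in the middle levels and 15.2 at X4, and its slope of 0.11 ± 0.03 did not pass (adjusted p = 0.0871). ZMAT3 narrowly missed the threshold after each library was centred on its trimmed mean (adjusted p = 0.0508), and SESN1 narrowly passed when log2 LIN28B RNA replaced the rank of the level (0.084 per log2 unit of LIN28B, adjusted p = 0.0484).

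Total RNA of the genes of p53 feedback and of apoptosis did not pass. MDM2 ran 24.5, 25.8, 25.8, 22.2 and 27.2 RPKM, with X3 lowest, and a slope of 0.01 ± 0.03 (adjusted p = 0.925). CCNG1, which encodes cyclin G1, a partner of the phosphatase that acts on MDM2, lay between 71.8 RPKM at X3 and 84.4 at X1 (slope -0.02 ± 0.03, adjusted p = 0.76). BAX, which encodes a pore-forming effector of mitochondrial apoptosis, had 61.3, 68.8, 69.8, 76.2 and 66.7 RPKM and a slope of 0.04 ± 0.03 (adjusted p = 0.483). BBC3, which encodes the BH3-only protein PUMA, was highest at X0, with 10.0, 8.83, 9.15, 8.85 and 7.19 RPKM, and its slope was -0.09 ± 0.03 (adjusted p = 0.134). Each of these 4 genes spanned at most 1.39-fold from its lowest to its highest library. Without X0 none of the 10 genes passed, CDKN1A at a slope of 0.31 (adjusted p = 0.108), and no gene of the 10 passed when X0 was set against X1 to X4 together, a test that called 3 of all genes (0.0265%). Without X4, BTG2 (adjusted p = 0.0661) and ZMAT3 (adjusted p = 0.0881) did not pass and BAX did (slope 0.10, adjusted p = 0.0415). Shares of all genes called without X0 or without X4 are not given here.

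**Figure D1:**
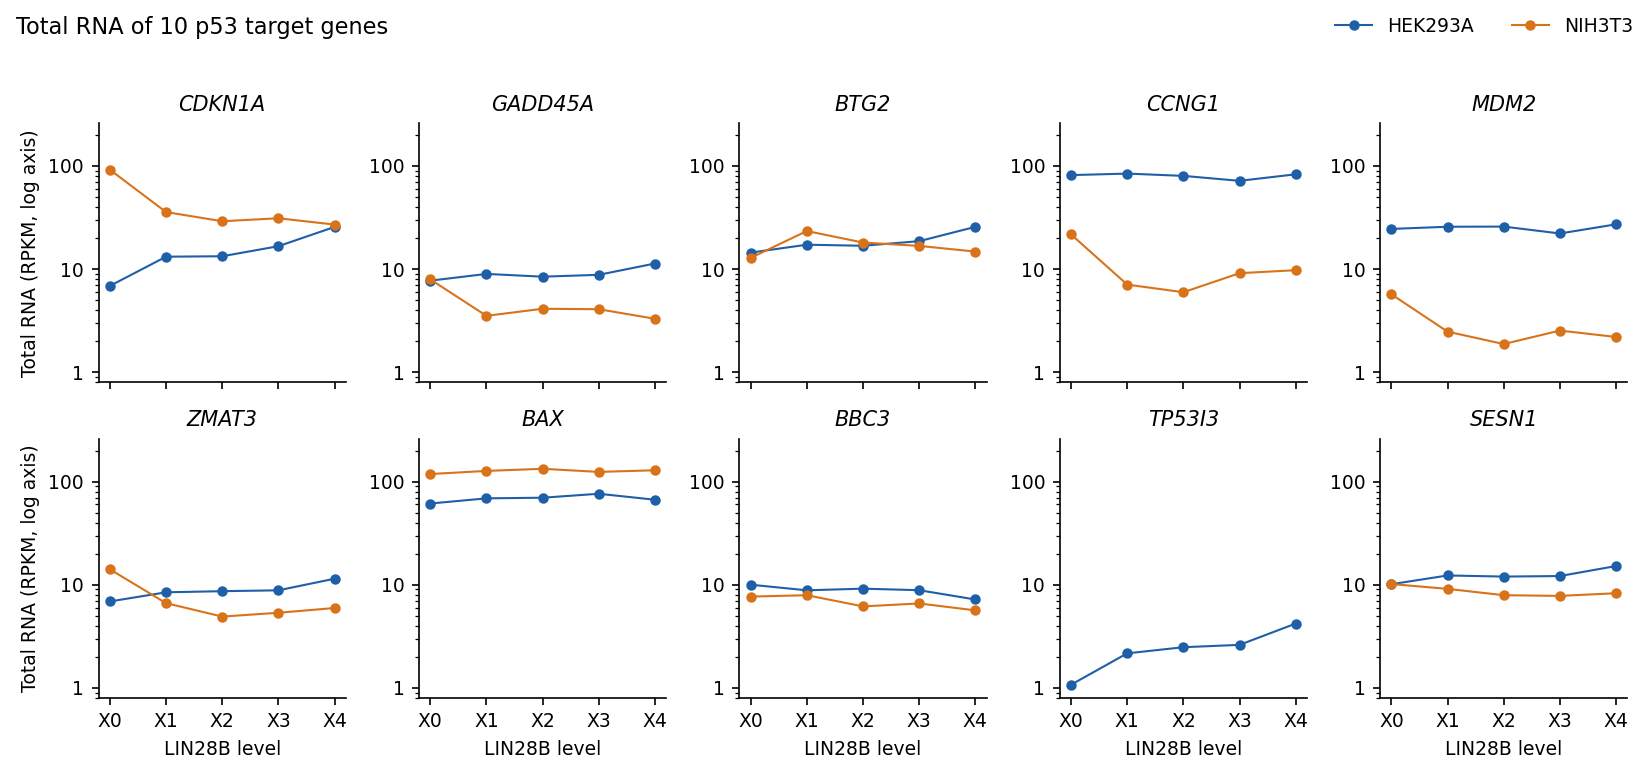
Total RNA in RPKM (log axis) of the 10 p53 target genes at LIN28B levels X0 to X4, 1 library per point, HEK293A in blue and NIH3T3 in orange (TP53I3 only in HEK293A). CDKN1A climbs from 6.88 to 25.6 RPKM in HEK293A and drops from 92.1 to 35.8 RPKM between X0 and X1 in NIH3T3, while BAX stays between 61.3 and 76.2 RPKM and between 118 and 133 RPKM.

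Of 32 other p53 targets listed by name, 30 were tested in HEK293A, and 3 rose, 0 fell, and 28 had slopes above 0 (median 0.07). EDA2R, a death-domain receptor of the TNF receptor family, went from 6.70 RPKM at X0 to 11.3 at X4, a slope of 0.15 ± 0.03 (adjusted p = 0.0309). The death receptor genes TNFRSF10B (slope 0.12, adjusted p = 0.0475) and FAS (slope 0.14, adjusted p = 0.0496) passed narrowly. PPM1D, a phosphatase that dampens p53 signalling, had a slope of 0.03 (adjusted p = 0.557).

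Of 16 tested p53 regulators, 0 rose and 0 fell. MDM4, which inhibits p53 together with MDM2, had a slope of -0.11 ± 0.03 (adjusted p = 0.0647).

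Ribosome occupancy was taken as log2 of polysome RPKM plus 0.5 over total RPKM plus 0.5. In HEK293A it fell with LIN28B in 5 of the 10 genes, CDKN1A, GADD45A, BTG2, BBC3 and BAX, and rose in 2, CCNG1 and ZMAT3. Over all 11125 genes tested 39% fell and 19.1% rose. As deposited, the counts of the 10 genes thus lie near those of all genes and are nothing particular to them. In 6 of the 10, every level with LIN28B lay below X0 (45.7% of all genes). The median slope was -0.19 against -0.07 over all genes.

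CDKN1A occupancy was 0.31, 0.25, 0.07, -0.68 and -0.64 from X0 to X4. The drop came between X2 and X3, and the slope was -0.28 ± 0.06 (adjusted p = 0.005). Its total RNA rose over the same levels. Its polysome RNA, at 8.64, 15.8, 14.0, 10.3 and 16.3 RPKM, was also lowest at X0 and highest at X4, 1.89-fold apart, but fell from X1 to X3. For GADD45A the values were -0.04, -0.18, -0.26, -0.93 and -0.98, with X3 and X4 apart from the rest (slope -0.26 ± 0.06, adjusted p = 0.00494). BTG2 declined at every step, at -0.33, -0.39, -0.53, -0.71 and -1.34 (slope -0.23 ± 0.06, adjusted p = 0.00824). Its polysome RNA stayed between 9.83 and 13.1 RPKM while its total RNA rose.

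In both apoptosis genes polysome RNA was highest at X0, as it was in 44.7% of all genes tested. BBC3 polysome RNA was 16.7, 8.21, 9.59, 5.50 and 4.81 RPKM, with X0 clearly highest. Its occupancy was 0.71, -0.10, 0.06, -0.64 and -0.53, the largest fall of the 10 at -0.30 ± 0.07 per level (adjusted p = 0.00576). BAX polysome RNA was 86.0, 79.5, 74.0, 60.2 and 48.1 RPKM, lower at each level, over total RNA that did not pass. BAX occupancy went from 0.49 through 0.21, 0.09 and -0.34 to -0.47 (slope -0.25 ± 0.05, adjusted p = 0.0046).

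The 2 genes whose occupancy rose did not rise evenly. CCNG1 occupancy was -1.15, -0.03, -1.27, 0.10 and 0.45 from X0 to X4. X0 and X2 were low and X1, X3 and X4 high, and the slope was 0.33 ± 0.12 (adjusted p = 0.0377). Its polysome RNA, at 36.5, 82.8, 32.9, 77.0 and 114 RPKM, carried this pattern on 933 to 3869 reads. ZMAT3 had -1.17, -0.79, -1.24, -0.80 and -0.21, with the same levels low (slope 0.19 ± 0.07, adjusted p = 0.0432). MDM2, which did not pass, shared X2 as its lowest level, at -1.85, -1.28, -2.07, -1.56 and -1.27 (slope 0.09 ± 0.08, adjusted p = 0.352). The X2 polysome library was also the shallowest of the 5 in HEK293A, at 9085007 reads, and the part of depth in this pattern was not tested.

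TP53I3 occupancy was 0.54, 0.31, 0.26, 0.40 and -0.19, with only X4 below 0 (slope -0.14 ± 0.06, adjusted p = 0.0749). SESN1 stayed between -0.17 and 0.25 (slope 0.03 ± 0.06, adjusted p = 0.739). With a pseudocount of 0.1 in place of 0.5, CCNG1 (adjusted p = 0.0533) and ZMAT3 (adjusted p = 0.0515) did not pass and TP53I3 did (adjusted p = 0.0479). Without X4 none of the 10 passed, without X0 3 fell and 0 rose, and without X3 6 fell and 0 rose. The shares of all genes called in these fits are not given here, so the counts are no result about the 10 genes. X0 against X1 to X4 as a group called 0 of the 10 and 2 of all genes (0.018%).

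**Figure D2:**
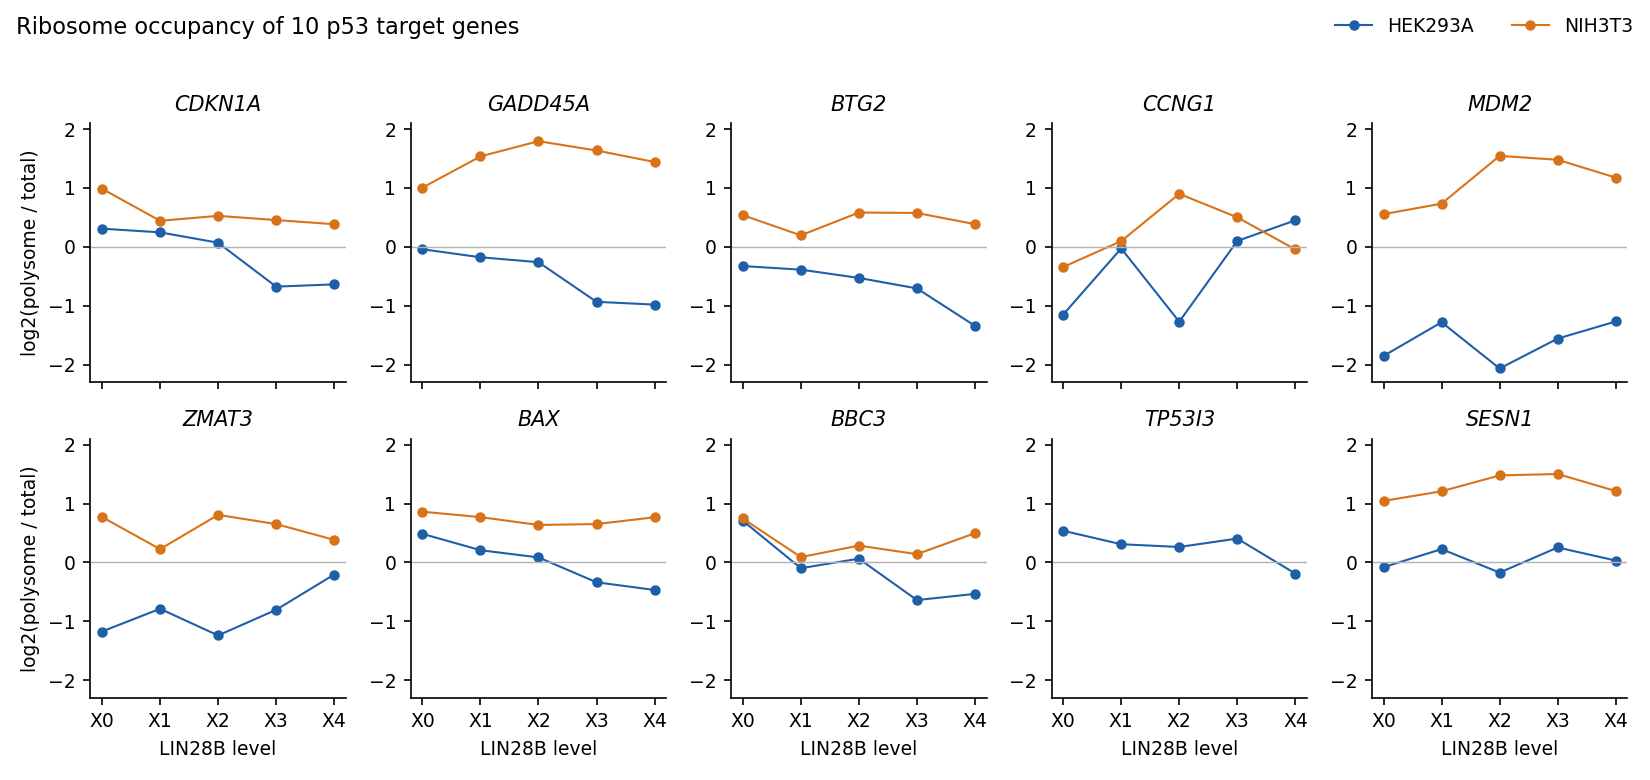
Ribosome occupancy, log2 of polysome over total RNA with 0.5 added to each RPKM, of the 10 genes at LIN28B levels X0 to X4 in HEK293A (blue) and NIH3T3 (orange), 1 pair of libraries per point. In HEK293A BAX goes from 0.49 to -0.47 with a fall at every step, while CCNG1 alternates between -1.27 and 0.45.

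Scaling of the libraries did not turn these calls, though it moved the background. After centring each library on its trimmed mean, the calls over all genes split 51.5% higher and the rest lower, compared with 32.9% higher as deposited, and the median slope of all genes went from -0.07 to -0.01. The same 5 genes fell and the same 2 rose after centring, after quantile normalization and with edgeR's quasi-likelihood test on the recovered reads. Of all 11125 genes, 3007 fell and 3198 rose after centring. After quantile normalization 2960 fell and 2914 rose, and with edgeR 3201 fell and 3289 rose.

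Among the 30 other p53 targets, occupancy fell in 14 and rose in 6, and among 16 p53 regulators it fell in 6 and rose in 3. With 39% of all genes falling and 19.1% rising, both lists lie near the background, and the genes named here are examples and no result about the lists. The falls with the smallest p were those of BCL2L1, encoding the survival protein BCL-XL (slope -0.37), NINJ1 (-0.30), the exonuclease gene AEN (-0.30) and TNFRSF10B (-0.25). The rises of smallest p, named after their values were seen, were those of the ribosomal protein gene RPS27L (0.18), RRM2B, which encodes a p53-inducible ribonucleotide reductase subunit (0.28), FAS (0.22) and PMAIP1, encoding NOXA (0.18). Among the regulators, the falls of smallest p were KAT5 (-0.24), CREBBP (-0.26), CDKN2A (-0.25) and TP73 (-0.24), and the rises, likewise named afterwards, were those of RCHY1 (0.29), ATR (0.24) and CHEK1 (0.18).

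**Figure D3:**
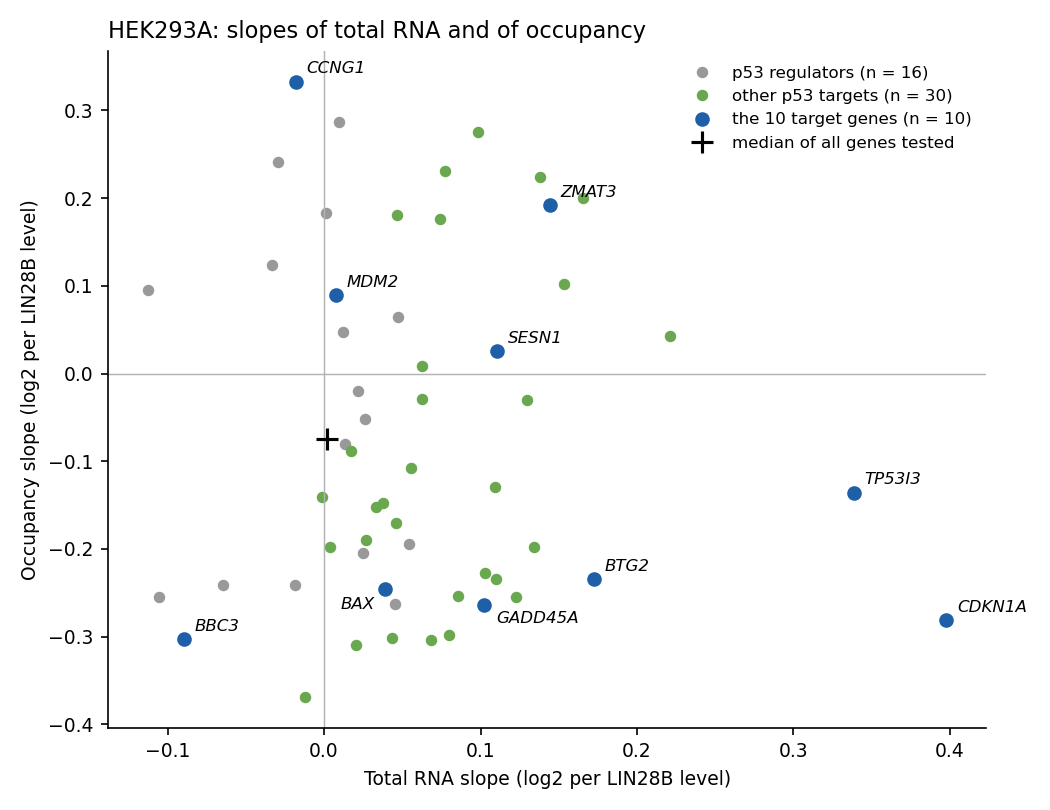
Slope of total RNA (x axis) and slope of occupancy (y axis), both in log2 units per LIN28B level in HEK293A, for the 10 target genes (blue), 30 other p53 targets (green) and 16 p53 regulators (grey), with a cross at the median of all genes. CDKN1A lies farthest right (0.40, -0.28) and CCNG1 highest (-0.02, 0.33).

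In NIH3T3 no straight trend over the 5 levels passed for any gene. Limma called 0 of 10348 genes in total RNA (0%), and edgeR also called 0. At an unadjusted p under 0.05, 11% of all genes and 1 of the 9 p53 target genes passed. Slopes of 8 of the 9 were below 0, with a median of -0.19 against 0.00 over all genes. The steepest was that of Cdkn1a, -0.37 ± 0.11 (adjusted p = 0.396), whose values did not follow a line but stood high at X0 alone.

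Setting X0 against X1 to X4, in place of the line, 5 of the 9 genes fell from X0 to the LIN28B levels and 0 rose, where 10.2% of all genes fell and 11.5% rose. They were Cdkn1a, Gadd45a, Ccng1, Mdm2 and Zmat3. This contrast rests on 1 total RNA library at X0, whose spread is assumed to be that of the other levels, so LIN28B and that library cannot be told apart. That library was also the deepest of the 5, at 23606610 reads against 15201625 to 20957806 in the others, and the part of depth was not tested. Because the genes were chosen with the RNA trends of the lines known, the counts of this contrast give no independent support.

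Cdkn1a total RNA in NIH3T3 was 92.1 RPKM at X0 and 35.8, 29.1, 31.1 and 27.0 at X1 to X4. X0 exceeded the mean of the others 2.99-fold, and the log2 difference of X1 to X4 from X0 was -1.57 ± 0.16 (adjusted p = 0.00363). Its polysome RNA, from other libraries, was 183 RPKM at X0 and 35.5 to 48.8 at X1 to X4. Gadd45a had 7.96 RPKM at X0 and 3.52, 4.13, 4.08 and 3.30 at the other levels, with no overlap (-0.99 ± 0.17, adjusted p = 0.0133). Ccng1 had 21.7 RPKM at X0 and 7.08, 5.97, 9.13 and 9.76 at X1 to X4 (-1.41 ± 0.26, adjusted p = 0.0158). Within X1 to X4 its highest values were at X3 and X4.

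Mdm2 went from 5.69 RPKM at X0 to 2.47, 1.88, 2.54 and 2.20 with LIN28B, on 153 to 722 reads (-1.17 ± 0.19, adjusted p = 0.0128). For Zmat3 the X0 value was 14.1 RPKM and the others were 6.62, 4.91, 5.35 and 5.94 (-1.24 ± 0.18, adjusted p = 0.0095). In all 5 genes X0 was highest also in polysome RNA, where 6 of the 9 genes had every LIN28B level below X0. That was true of 31.7% of all genes in polysome RNA. In total RNA, 6 of the 9 had every LIN28B level below X0 (36.9% of all genes) and 2 had every level above it (36%).

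The other 4 mouse genes did not pass. Bax was 118 RPKM at X0 and 124 to 133 at the other levels (0.11 ± 0.09, adjusted p = 0.398). Bbc3 had 7.67, 7.91, 6.17, 6.58 and 5.64 RPKM (-0.22 ± 0.19, adjusted p = 0.418). Sesn1 had 10.1 RPKM at X0 and 7.79 to 9.12 elsewhere (-0.28 ± 0.14, adjusted p = 0.169). Btg2 was the one with its lowest library at X0 and its highest at X1, at 12.8, 23.4, 18.1, 16.8 and 14.8 RPKM (0.47 ± 0.23, adjusted p = 0.168).

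In NIH3T3 this contrast also varied with gene length. Its median over all genes was 0.15 in the shortest tertile of genes, 0.00 in the middle one and -0.16 in the longest. Against genes of their own tertile, the 5 genes that fell stood at the 0.29 percentile (Cdkn1a), 0.493 (Ccng1), 1.16 (Zmat3), 1.65 (Mdm2) and 2.44 (Gadd45a). The part of length in these values was not tested further.

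Among the 20 other p53 targets tested in NIH3T3, 2 fell and 2 rose from X0 to the LIN28B levels, near the 10.2% and 11.5% of all genes. Phlda3 (-0.44, adjusted p = 0.0249) and Ppm1d (-0.62, adjusted p = 0.0437) fell, and Trp53inp2 (0.50, adjusted p = 0.0249) and the nuclear body gene Pml (0.94, adjusted p = 0.0191) rose. Of the 7 regulators tested 1 passed, Rfwd2, which encodes the ubiquitin ligase COP1 (-1.02, adjusted p = 0.0255).

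NIH3T3 occupancy gave 0 calls by limma among 10952 genes (0%) and 0 by edgeR, with 5.04% of genes and 0 of the 9 at an unadjusted p under 0.05. X0 against the other levels gave 0 calls as well, with 2 of the 9 genes and 11.2% of all genes at an unadjusted p under 0.05. Those 2 were Cdkn1a, at 0.99 at X0 and 0.38 to 0.53 elsewhere (-0.53 ± 0.16, adjusted p = 0.442), and Bbc3, at 0.75 and 0.09 to 0.50 (-0.49 ± 0.21, adjusted p = 0.445). Gadd45a occupancy was lowest at X0 and was 1.54, 1.79, 1.64 and 1.44 from X1 to X4, above X0 at every level (23.6% of all genes). In HEK293A GADD45A lay below X0 at every level (45.7% of all genes).

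The slopes of the lines were compared directly over genes shared by symbol. In total RNA the difference, HEK293A minus NIH3T3, was above 0 for all 9 genes, with a median of 0.19 against 0.01 over all 6811 genes. None passed (0% of genes either way; 16.3% of genes and 4 of the 9 at an unadjusted p under 0.05). CDKN1A was largest, at 0.77 ± 0.14 (adjusted p = 0.0944). When X0 was set against X1 to X4 in each line, a test added after the data had been seen, the difference was higher in HEK293A for 6 of the 9 and lower for 0, where 15.9% of genes were higher and 10.1% lower. The log2 differences were 2.78 ± 0.38 for CDKN1A (adjusted p = 0.000859), 1.65 ± 0.24 for ZMAT3 (adjusted p = 0.00156) and 1.20 ± 0.21 for MDM2 (adjusted p = 0.00289). GADD45A (1.25, adjusted p = 0.0034), CCNG1 (1.38, adjusted p = 0.00529) and SESN1 (0.61, adjusted p = 0.0367) passed too. CDKN1A, ZMAT3, SESN1 and GADD45A lay above X0 at every level in HEK293A and below it at every level in NIH3T3. HEK293A levels of MDM2 and CCNG1 lay on both sides of X0. The share of all shared genes with the opposite pattern was not counted. In each line alone, 25.8% of HEK293A genes lay above X0 at every level and 36.9% of NIH3T3 genes below it. Each X0 arm of the added contrast is 1 total RNA library, and the contrast within HEK293A called none of these genes. For MDM2 it was 0.04 in HEK293A and -1.17 in NIH3T3, and for CCNG1 -0.03 and -1.41. In these genes the difference between lines therefore rests on the NIH3T3 X0 library. Opposite RNA trends of the lines were already known when the genes were chosen, so these counts and p-values give that pattern no independent support.

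**Figure D4:**
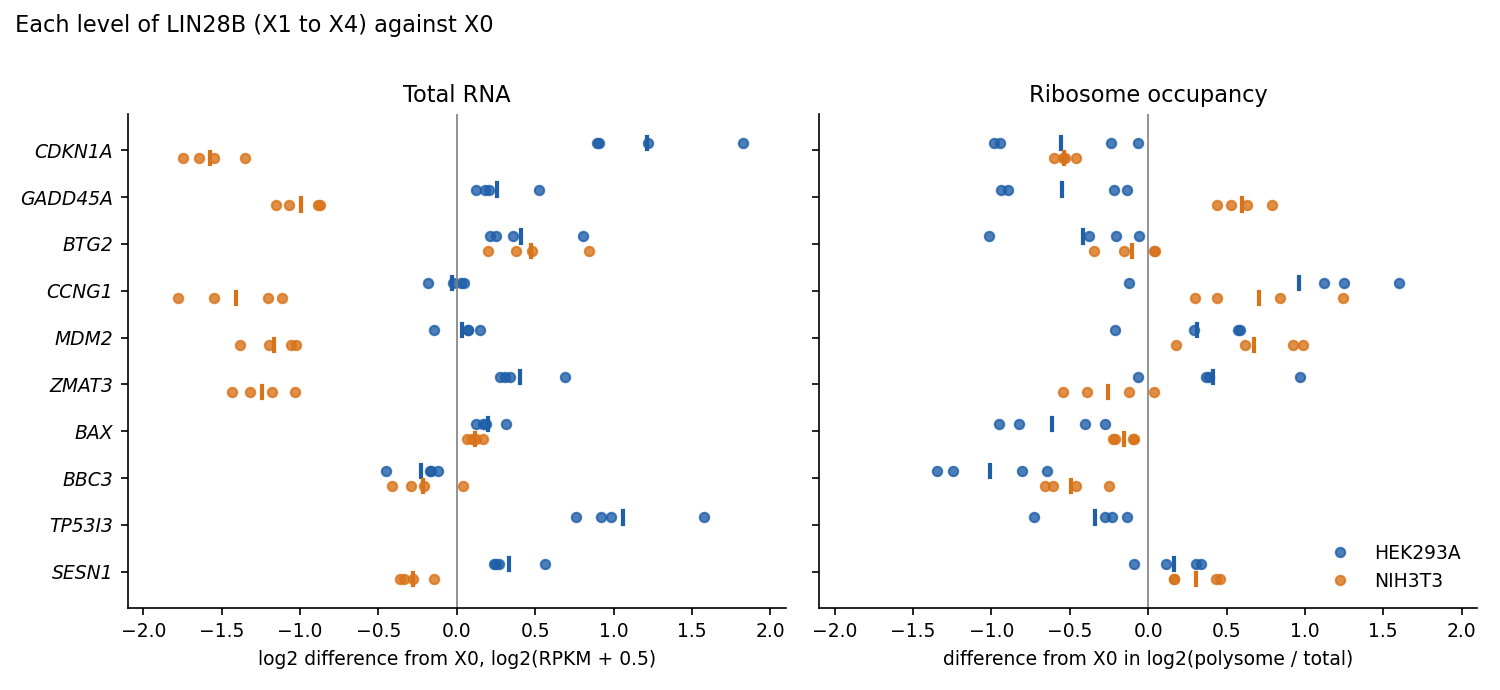
Difference of each LIN28B level X1 to X4 from X0 (points) and their mean (bars) for each gene, in log2 total RNA (left) and in log2 occupancy (right), HEK293A in blue and NIH3T3 in orange. In total RNA the points of CDKN1A, ZMAT3, SESN1 and GADD45A lie right of 0 in HEK293A and left of 0 in NIH3T3, and BTG2 and BAX lie right of 0 in both.

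For occupancy none of 7251 shared genes differed in slope between the lines (0%; 35.7% of genes and 4 of the 9 at an unadjusted p under 0.05). GADD45A came closest at -0.36 ± 0.10 (adjusted p = 0.0533). It passed with a pseudocount of 1 (adjusted p = 0.049), and over genes of at least 5 RPKM it passed (adjusted p = 0.0287) together with BAX (adjusted p = 0.0344) and BTG2 (adjusted p = 0.0497).

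The level of occupancy, averaged over the 5 LIN28B levels, also set the genes apart. In HEK293A MDM2 was lowest, at -1.61 ± 0.35 (SD over 5 levels), the 2.72 percentile of all genes, and TP53I3 highest at 0.26 ± 0.27. ZMAT3 (-0.84 ± 0.41), BTG2, GADD45A, CCNG1, CDKN1A, BBC3, BAX and SESN1 (0.05 ± 0.19) followed MDM2 in that order, and neighbours above MDM2 lay closer than the SD of either gene, except SESN1 and TP53I3, whose gap exceeded the SD of SESN1. In NIH3T3 Ccng1 was lowest, at 0.22 ± 0.49, and Gadd45a highest at 1.48 ± 0.30, the 94.3 percentile. Mdm2 stood at 1.10 ± 0.44, the 82.4 percentile there. Medians of all genes were -0.43 and 0.62, so levels are comparable within a line and not between lines.

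Transfected let-7a, a microRNA that LIN28B holds back, was compared with untransfected X0 in HEK293A. Its mature sequence (RefSeq) is shown because the transfected molecule is the treatment, with the seed, bases 2 to 8, in capitals.
let-7a: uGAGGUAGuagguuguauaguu
HMGA2, a textbook let-7 target, went from 5.87 RPKM without let-7a to 0.737 with it, and LIN28B from 3.60 to 1.41. Each side is 1 library, the tables may have been scaled separately, and differences are given with their counting error and no test. No cells transfected without let-7a are among the samples, so let-7a and the transfection itself cannot be told apart. Log2 differences, and the folds taken from them here, have 0.5 added to each RPKM value, so the folds are smaller than the plain ratios.

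GADD45A total RNA was 7.73 RPKM (645 reads) without and 27.3 RPKM (2009 reads) with let-7a, a log2 difference of 1.75 ± 0.07 or 3.37-fold, at the 99.8 percentile of all genes. In polysome RNA GADD45A was 7.50 RPKM without and 36.6 with let-7a, 4.64-fold higher. It was the only one of the 10 genes past 2-fold in total RNA, where 2.27% of genes were past 2-fold higher, and in polysome RNA, where 11.8% were. None of the 10 was past 2-fold in occupancy, where 5.11% of genes were.

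The other 9 genes were at most 1.49-fold higher with let-7a in total RNA. CDKN1A was 6.88 RPKM without and 10.5 with let-7a (0.58 ± 0.07), and BBC3 10.0 and 14.7 (0.54 ± 0.05). SESN1 (-0.31 ± 0.05), CCNG1 (-0.29 ± 0.02) and MDM2 (-0.25 ± 0.02) were lower with let-7a, and the remaining 4 lay between 0.08 and 0.24. The median of the 10 was 0.11, with 0.14 for the 30 other targets and 0.00 for all genes, whose SD was 0.46. MDM4 was 2.11-fold higher (1.08 ± 0.04, the 98.3 percentile). MIR34A, host of a microRNA induced by p53, had 0 counts in each of the 8 small RNA libraries, whose totals of 73083 to 172995 counts allow at most 41.0 CPM in the shallowest.

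**Figure D5:**
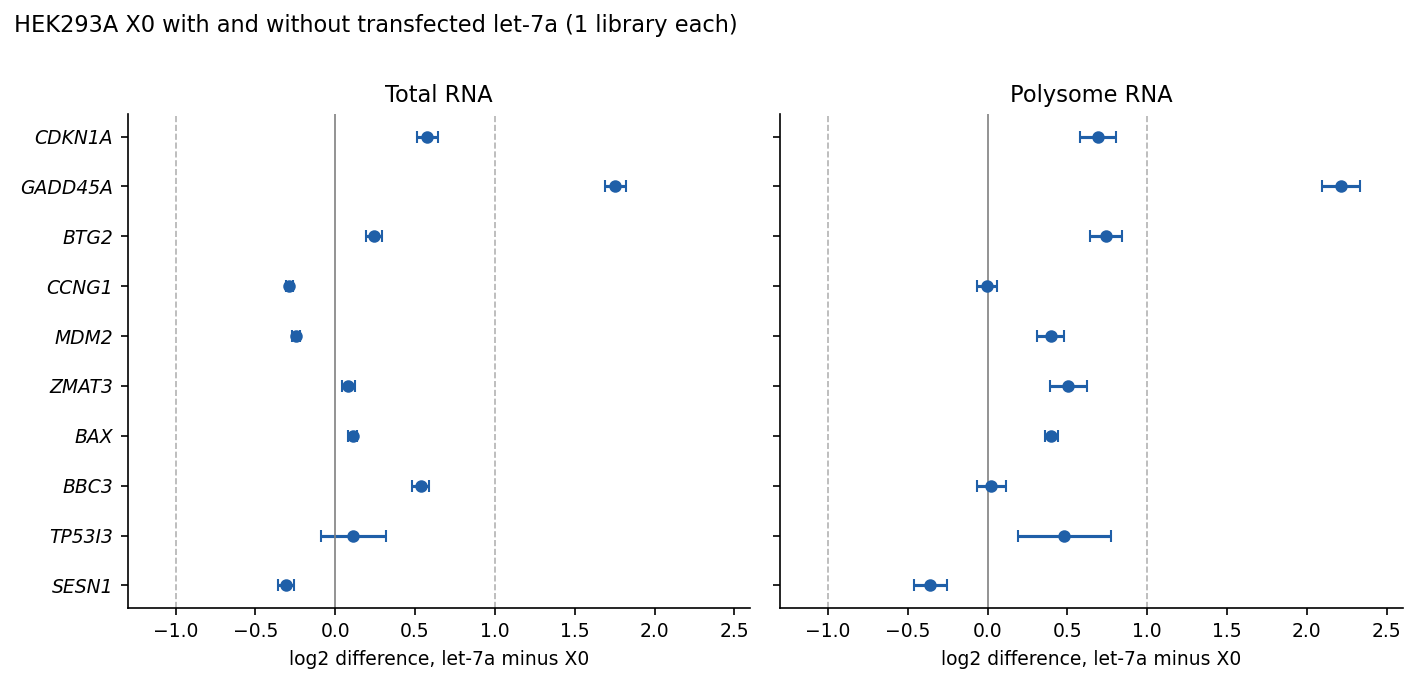
Log2 difference between HEK293A X0 with and without transfected let-7a, in total RNA (left) and polysome RNA (right), for the 10 genes, 1 library a side. Bars are the SE from read counting alone and dashed lines mark a 2-fold difference, which only GADD45A passes (1.75 and 2.21).

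The genes whose 10 HEK293A libraries ran most like those of CDKN1A, among 6040 genes averaging at least 5 RPKM in both fractions, were the troponin gene TNNT1, the elongation factor gene EEF1A2 and the selenoprotein gene GPX3. Their root mean square differences from CDKN1A, in log2 values centred within each fraction, were 0.24, 0.29 and 0.29. None of these 3 is among the p53 targets or regulators listed.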

How the data were processed

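The authors deposited RPKM values of total and polysome RNA, and raw counts per gene of the small RNA. STAR, cutadapt, mm10 and hg19 are named in the submitters' processing notes. How reads were counted, on which strand and with which annotation remains not given in the sources used here. Binding-site data were not analysed here. The deposited HEK293A table holds only genes at 1 RPKM or more in every total RNA library.

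The 10 genes, the lists of other p53 targets and regulators, and the tests were chosen with earlier results of these data known, so patterns already seen there have no independent support. Genes named are the 10, LIN28B, MDM4 and PPM1D, up to 4 listed targets and regulators of smallest p past the threshold per trend, and the 3 genes nearest to CDKN1A. HMGA2, MIR34A, Cdkn2a and CPM are named as checks or neighbours, outside that rule. One listed regulator is not reported here. Samples were grouped by the level, fraction and line in their titles.

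Low RPKM values are whole multiples of 1 read, from which reads were recovered within 0.02 of a whole number for 100% of 11342 HEK293A genes, 21038 of 21042 NIH3T3 genes above 0 and 99.9% of those genes in each let-7a library. They gave depths, counting errors and the test with edgeR 4.0.16, which called 177 HEK293A genes higher and 100 lower in total RNA (168 and 86 by limma). Log2(RPKM + 0.5) and log2 occupancy, over genes averaging 1 RPKM or more, were fitted against the rank of the level with limma 3.58.1 (R 4.3.3), with a variance trend and Benjamini-Hochberg adjustment at 0.05. With 1 library per level, p-values measure only the scatter of these libraries around a line, or within X1 to X4. Alternatives changed the pseudocount, filter, scaling, covariate, test and levels used. RefSeq sequences (GRCh38.p14) gave promoters, whose coordinates are not those of the files' build. Intervals and limits cover counting error only, and the limit for 0 counts is 3 counts.

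Tested on simulated data, 94.7% of 94 genes simulated with a slope of 0.25 were called by limma in HEK293A total RNA, with 5.80% false calls. In HEK293A occupancy it recovered 60.6%, with 16.1% false calls (edgeR 1.22%). In NIH3T3 it recovered 61.8% of 102 genes in total RNA (5.88% false) and 25.5% in occupancy (8.96% false). These rates hold for the simulated data only. Whether the scatter of those data matches that of the deposited libraries was not tested.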

Additional observations from a re-analysis of the deposited data

Results flagged for a closer look

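Differences between the lines stood out for 7 values. In total RNA the HEK293A slope minus the NIH3T3 slope was 0.77 for CDKN1A, 0.41 for ZMAT3, 0.31 for GADD45A, 0.24 for MDM2, 0.19 for SESN1 and 0.17 for CCNG1, in log2 units per level. By limma with Benjamini-Hochberg adjustment none of these slope differences passed (adjusted p from 0.0944 for CDKN1A to 0.605 for CCNG1). They are listed because the contrast of X0 with X1 to X4, added after the data had been seen, differed between lines (adjusted p from 0.000859 for CDKN1A to 0.0367 for SESN1). For CDKN1A, ZMAT3, SESN1 and GADD45A all 4 LIN28B levels also moved from X0 in opposite directions in the lines. The share of all genes with that pattern was not counted, and opposite RNA trends were known when the genes were chosen. The 7th value is GADD45A occupancy, with a slope difference of -0.36 (adjusted p = 0.0533) and all levels on opposite sides of X0. For it the contrast of X0 with X1 to X4 did not pass (adjusted p = 0.818). In occupancy, 45.7% of HEK293A genes lay below X0 at every level, and 23.6% of NIH3T3 genes lay above it. Occupancy, too, was among the results known when the genes were chosen.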

How the results depend on the processing

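In HEK293A, 4 genes rose in total RNA under both other pseudocounts, quantile normalization and edgeR, 5 with log2 LIN28B as the covariate (SESN1 added), 3 after centring and 3 over genes of at least 5 RPKM, where TP53I3 was not tested. Leaving out 1 level gave 0 to 4, and X0 against X1 to X4 gave 0. In occupancy 5 fell and 2 rose under most settings, but 0 rose with a pseudocount of 0.1. X0 against X1 to X4 gave 0 and 0, and leaving out 1 level gave 0 to 6 falls and 0 to 2 rises. In NIH3T3 total RNA 5 fell by X0 against X1 to X4 and 0 by the line. Between lines, total RNA differed for 6 genes by that contrast (added after seeing the data) and occupancy for 1 with a pseudocount of 1, for 3 over genes of at least 5 RPKM, and for 0 to 1 with a level left out. The cause was not tested, and the shares of all genes called with a level left out are not given here.

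Values that had not passed changed sign, most of them near 0, but for Ccng1 in NIH3T3 total RNA (slope -0.19) and for CCNG1 between lines (0.17) the value without X0 was as large in the other direction. Quantile normalization gave -0.0020 for the slope of NIH3T3 Bax total RNA, and line differences in occupancy of 0.0077 for MDM2 and 0.015 for SESN1. Centring gave 0.051 for that SESN1 difference and -0.0033 for the slope of NIH3T3 Btg2 occupancy. X0 against X1 to X4 gave 0.47 for Btg2 total RNA and -0.10 for its occupancy, and line differences in total RNA of -0.066 for BTG2 and -0.010 for BBC3. With 1 level left out, the HEK293A slopes ranged in total RNA from -0.043 to 0.033 (MDM2), -0.062 to 0.0018 (CCNG1) and -0.00063 to 0.096 (BAX), and in occupancy from -0.016 to 0.061 (SESN1). The NIH3T3 slopes ranged in total RNA from -0.20 to 0.076 (Btg2), -0.38 to 0.19 (Ccng1) and -0.0038 to 0.027 (Bax). In occupancy they ranged from -0.029 to 0.056 (Btg2), -0.089 to 0.032 (Zmat3), -0.16 to 0.11 (Bbc3), -0.044 to 0.22 (Gadd45a), -0.082 to 0.33 (Ccng1) and -0.076 to 0.00071 (Bax). Line differences ranged in total RNA from -0.0091 to 0.050 (BBC3), -0.21 to 0.32 (CCNG1) and -0.0050 to 0.068 (BAX), and in occupancy from -0.082 to 0.36 (CCNG1). Occupancy paired the fractions by level, but replicates could not be paired because each level and fraction has 1 library.

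Depth limits TP53I3 most, with 51 to 123 polysome reads per HEK293A library.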
